A study of Mus musculus with 4 samples.

Results

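Lubricin and hyaluronan metabolism was followed through 9 genes of the 30406 genes listed for all 4 libraries. They were chosen for their known roles, with earlier results of these data known, and taken by name. These were Prg4, Has1, Has2, Hyal1, Hyal2, Cemip, Cemip2 (named Tmem2 in the gene list of tdT1 and joined by its identifier), Cd44 and Tnfaip6. The libraries were 3′ single-cell RNA-seq of the popliteal lymphatic vessels (PLVs) and the superficial saphenous vein (SSV) of mice on a C57BL/6J background, and each pooled 3 mice. The tdT1 and tdT2 libraries held tdT+ cells of adult male and female Cspg4-Cre;Ai9-tdTomato mice, in which the Cspg4 promoter drives Cre and so switches on the red reporter in mural cells and whatever else has expressed Cspg4. The WT library (wild-type mice, labelled C57BL6) and the TNF-Tg library (mice with a human TNF transgene, which develop inflammatory-erosive arthritis) came from males labelled 9 months old and held live cells of high forward or side scatter, without a reporter. Both PLVs and the SSV were digested together, so the vessel a cell came from was not recorded. WT and TNF-Tg had 1 library each, so genotype and library cannot be told apart, and no test was made of that contrast.

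Lubricin, the product of Prg4, is a mucin-like glycoprotein that coats sliding surfaces such as cartilage, tendon and synovium. Hyaluronan is a long, unsulphated sugar polymer that Has1 and Has2, synthases of the plasma membrane, extrude into the matrix from the UDP-sugars UDP-glucuronic acid and UDP-N-acetylglucosamine. Hyal2 at the cell surface and Hyal1 in lysosomes cut it, Cemip and the transmembrane protein Cemip2 take part in its breakdown outside the cell, Cd44 is its main receptor, and Tnfaip6 (TSG-6) moves the heavy chains of inter-alpha-inhibitor onto it.

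The libraries held 10837 barcodes, from 454 in tdT2 to 5488 in WT, and a median of 4932.5 to 12660 unique molecular identifiers (UMIs, tags that each mark 1 captured transcript) per cell. Cells were gated on marker UMIs into types, without any of the 9 genes. Stromal cells were split by 12 markers of the population that the study names lymphatic muscle cells (LMCs) and 12 of the population it names vascular smooth muscle cells (VSMCs), and are called LMC-type and VSMC-type below. There were 728, 91, 1380 and 543 LMC-type cells in tdT1, tdT2, WT and TNF-Tg, and 247, 122, 647 and 460 VSMC-type cells. Of the stromal cells of a library, 33 to 164 lay between both cuts and 9 to 90 lay within 0.25 log2 units of either one, so the split is a range and not a border. Contractile smooth muscle markers were low in both types: the 6 genes summed to 4.50 to 40.02 CPM (UMIs of a gene per 1000000 UMIs of the type), while Dcn alone reached 10609 to 25566 CPM. In LMC-type cells most of the sum was Des, at 39.1, 9.67, 37.5 and 28.1 CPM in tdT1, tdT2, WT and TNF-Tg. In VSMC-type cells no gene of the list exceeded 12.4 CPM (Des in tdT1). The muscle labels were thus not borne out by the contractile genes as a set. The study also reported limited Acta2, Myh11 and Tagln, and rested its labels on other genes, such as Cald1, Tpm1 and Pdgfrb, and on reporter mice. It could not fully exclude myofibroblasts from the tissue around the vessels. In this text the names stand for the marker gates alone.

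The genes lie apart in the mouse genome (GRCm38, GENCODE annotation), and their counts come from the 3′ ends of their transcripts. Prg4 spans chromosome 1 from 150449412 to 150466165 on the minus strand and overlaps Tpr on the other strand. Has1 lies on chromosome 17 (17843323 to 17855205, minus), Has2 on chromosome 15 (56665627 to 56694539, minus, with the antisense gene Has2os) and Tnfaip6 on chromosome 2 (52038009 to 52056686, plus). Cd44 lies on chromosome 2 (102811141 to 102901665, minus), Cemip on chromosome 7 (83932857 to 84086502, minus) and Cemip2 on chromosome 19 (21778342 to 21858360, plus). Hyal2 (107567945 to 107572779, plus) and Hyal1 (107576927 to 107581710, plus) are neighbours on chromosome 9. Hyal1 shares bases with Hyal3 and Naa80 on its own strand, so its counts are uncertain.

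The promoters of Has1 and Tnfaip6 are shown because these were the members whose level in tdT1 most exceeded that in WT, beside the immediate-early genes (below). Sequences are from RefSeq (GRCm38.p6), whose promoter table gave usable windows for 5 of the 9 genes. Each window runs from 250 bases before the RefSeq start to the base before the earlier annotated start (RefSeq or GENCODE), the transcript start used here. The windows were searched on both strands for TGANTCA (the AP-1 motif), TGACGTCA (the cAMP response element, CRE) and the NF-kB motif. The Has1 window at chr17:17855206-17855438 (minus strand, 233 bases) held 1 CRE motif, in capitals, that starts 66 bases before the transcript start, a motif that 1.32% of all promoters hold in the same bases. The Tnfaip6 window at chr2:52037863-52038008 (plus strand, 146 bases) held 1 AP-1 motif, in capitals, that starts 38 bases before the start. That motif is held by 3.86% of promoters in the same bases. Both shares were counted from 250 bases before each RefSeq start over the window's length, so they leave out the bases nearest that start. Over all 250 bases, 1.55% of promoters hold the CRE motif and 6.75% the AP-1 motif.
Has1: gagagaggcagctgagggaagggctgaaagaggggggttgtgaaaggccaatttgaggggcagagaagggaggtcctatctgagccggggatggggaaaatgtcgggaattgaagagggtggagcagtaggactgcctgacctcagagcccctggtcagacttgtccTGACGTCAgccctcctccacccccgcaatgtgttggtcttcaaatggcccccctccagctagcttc
Tnfaip6: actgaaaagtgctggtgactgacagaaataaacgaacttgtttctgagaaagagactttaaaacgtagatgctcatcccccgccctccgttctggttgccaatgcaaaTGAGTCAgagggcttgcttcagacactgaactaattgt
The windows of Hyal1, Cemip and Cd44 held none of the 3 motifs. A match of letters is a description of the window only.

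Prg4 was highest in TNF-Tg in both stromal types. In LMC-type cells it stood at 11.3 CPM [9.16–13.9] in tdT1, 11.6 CPM [4.26–25.3] in tdT2, 194 CPM [188–200] in the WT library and 858 CPM [837–879] in TNF-Tg, where square brackets hold exact 95% Poisson intervals that cover counting error only. In VSMC-type cells it stood at 23.9, 30.5, 196 and 642 CPM in the same order. The order was the same in both types, with the tdT libraries lowest and within counting error of each other, WT above them and TNF-Tg highest. WT exceeded tdT1 17.1-fold and tdT2 16.7-fold in LMC-type cells, 8.19-fold and 6.42-fold in VSMC-type cells, so that the gap between libraries without the transgene was larger than the 4.43-fold and 3.28-fold gap of TNF-Tg over WT. The WT library differed from the tdT libraries in the sort, the reporter and the sex of the mice at once, and these cannot be told apart. The ages that the study states for these mice overlap, so a difference in age is not shown. The LMC-type cells of these libraries also lay in different clusters, in a clustering made without the 9 genes and without correction for library. Clusters 2 and 5 held 48.9% and 30.6% of those of tdT1, and cluster 26 held 74.7% of those of tdT2. Cluster 10 held 51.7% of WT, 3.02% of tdT1 and 2.20% of tdT2 LMC-type cells.

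Of the synthases, Has1 varied most among the libraries without the transgene. It stood at 526 CPM [511–542] in tdT1, 15.5 CPM [6.68–30.5] in tdT2, 53.8 CPM [50.8–57.0] in the WT library and 52.6 CPM [47.5–58.1] in TNF-Tg LMC-type cells, and at 228, 28.9, 11.2 and 32.4 CPM in VSMC-type cells. The tdT replicates were 34.0-fold apart in LMC-type cells and 7.88-fold apart in VSMC-type cells, and their LMC-type cells lay in different clusters (above), while WT and TNF-Tg did not differ in LMC-type cells beyond counting error. Has2 was steadier, at 199, 106, 136 and 78.0 CPM in LMC-type cells and at 75.0, 41.7, 163 and 33.4 CPM in VSMC-type cells of tdT1, tdT2, WT and TNF-Tg. TNF-Tg had the lowest Has2 in both types, although its interval met that of tdT2 in each. The remaining synthase, Has3, had 0 to 4 UMIs in each of these sums.

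Tnfaip6 stood at 782 CPM [763–802] in tdT1, 505 CPM [445–570] in tdT2, 106 CPM [102–110] in the WT library and 301 CPM [289–314] in TNF-Tg LMC-type cells. In VSMC-type cells it stood at 507, 116, 79.9 and 155 CPM. WT was lowest in both types, and TNF-Tg lay between WT and tdT1. Cd44, the receptor, was low in the stroma and ranged from 23.2 to 64.6 CPM over the 8 sums. In LMC-type cells it stood at 29.2, 23.2 and 27.0 CPM in tdT1, tdT2 and WT, with intervals that met, and at 55.0 CPM [49.8–60.6] in TNF-Tg, above all 3.

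The tdT1 library was sorted through a smaller nozzle and sequenced on another instrument than the others, and its immediate-early genes stood apart. The summed level of 6 of them (Fos, Fosb, Jun, Junb, Egr1 and Atf3, a list chosen after values were seen) was 15569 CPM in tdT1 LMC-type cells against 3892, 3293 and 2544 CPM in tdT2, WT and TNF-Tg. In VSMC-type cells it was 22247 CPM against 5707, 3103 and 2772 CPM. Has1 and Tnfaip6 were highest in the same library, and the part of this response or of the handling in their levels was not tested.

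The enzymes of breakdown were scarce in the stroma. Hyal1 reached 4.199 CPM at most, Hyal2 11.6 CPM and Cemip2 5.98 CPM in any stromal sum, and Hyal1 had 0 UMIs in tdT2 LMC-type cells, where 3 UMIs would be 5.80 CPM. None of them reached the 20 CPM at which ratios were counted. Cemip had 0 UMIs in the stromal cells of tdT1, tdT2 and WT, which allows a share of up to 0.280%, 1.22% and 0.137% of cells with a UMI, and 78 UMIs in TNF-Tg.

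**Figure D1:**
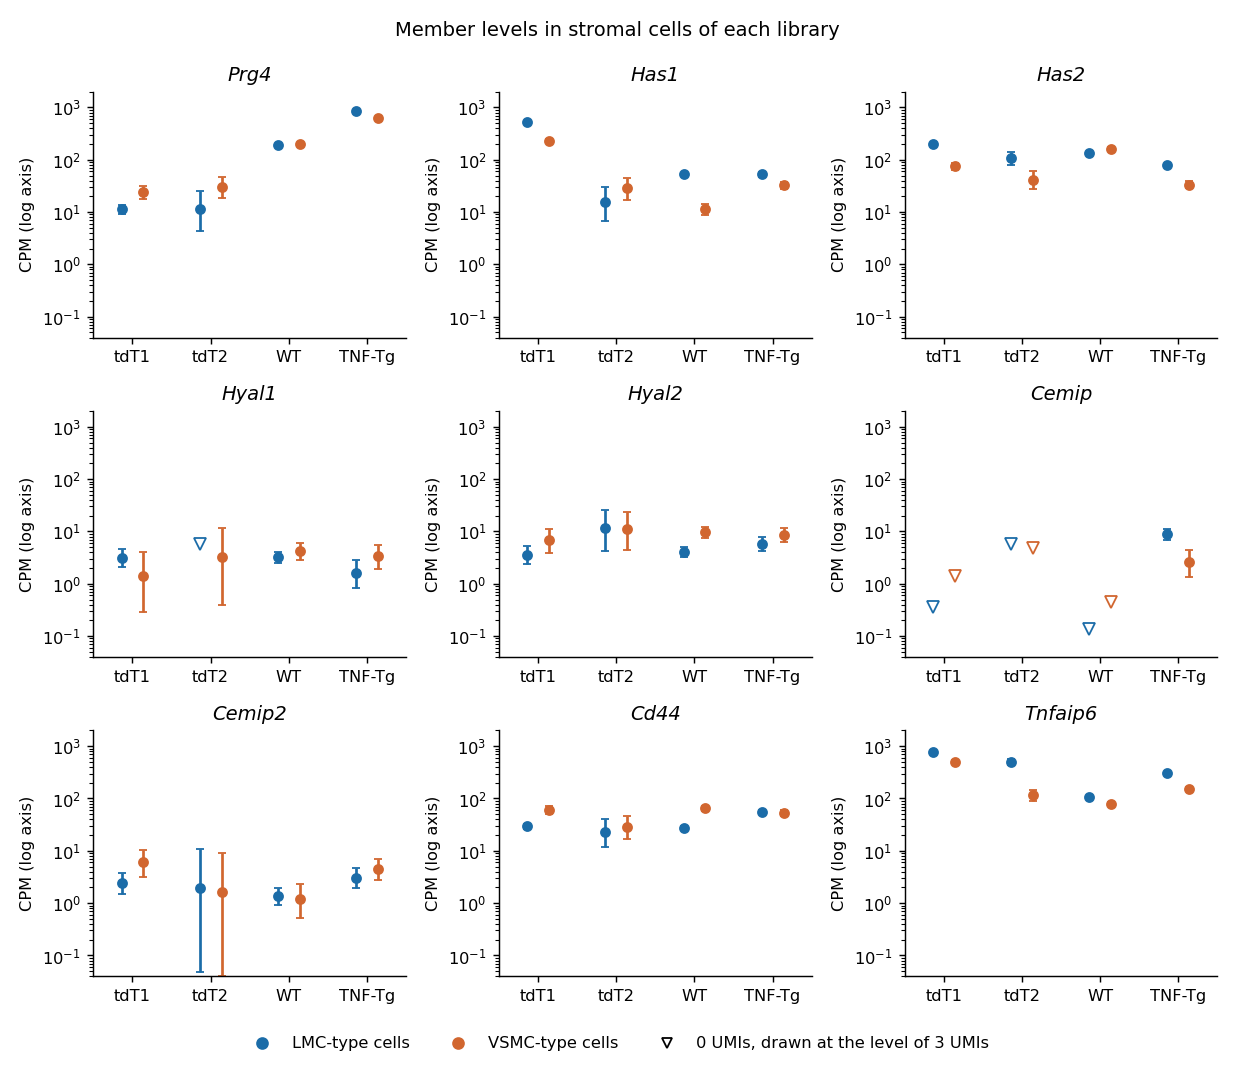
Level of each member in LMC-type (blue) and VSMC-type (orange) cells of each library, in CPM on a log axis, with exact 95% Poisson intervals. Open triangles mark sums with 0 UMIs, drawn at the level of 3 UMIs. Prg4 is highest in TNF-Tg in both types (858 and 642 CPM), Has1 is highest in tdT1 (526 and 228 CPM) and Cemip has UMIs only in TNF-Tg among these 8 sums.

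Between stromal cells and macrophages, the synthases Has1 and Has2, Prg4 and Tnfaip6 were higher in the stroma. Hyal2, Cemip2 and Cd44 were higher in macrophages. Endothelial cells, given below, were not part of this contrast. This contrast lies within each library, so UMIs were summed over all stromal cells and over all macrophages of each of the 4 libraries and tested with edgeR's quasi-likelihood test across 12790 genes, with the library as a term. The p-values measure the spread between these 4 libraries, and a call needed a Benjamini-Hochberg adjusted p below 0.01. Of the 8 members tested, 4 were higher in stromal cells, beside 26.1% of all genes, and 3 were lower, beside 19.0% of all genes. Each of the 7 had the same direction in all 4 libraries, and Cemip was too low to be tested. The macrophage sums held 25, 58, 1753 and 408 cells in tdT1, tdT2, WT and TNF-Tg.

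In WT, Prg4 stood at 198 CPM in stromal cells and 0.881 CPM in macrophages, and in TNF-Tg at 785 and 2.26 CPM. The fitted log2 difference was 8.27 ± 0.34 (SE, edgeR adjusted p = 4.95e-10). Has1 (43.8 against 0.278 CPM in WT) differed by 7.94 ± 0.40, Has2 (144 against 0.557 CPM) by 8.24 ± 0.40 and Tnfaip6 (101 against 0.464 CPM) by 7.99 ± 0.33, with edgeR adjusted p-values of 1.645e-09, 1.49e-09 and 5.39e-10. These fits rest on very few macrophage UMIs, 0 to 19 per library and gene, so their size depends on the prior count of the model. At the stromal ratio of Prg4 to the marker UMIs, the stromal markers in M2-type macrophages would bring 11.2 Prg4 UMIs in WT and 5.73 in TNF-Tg, where 14 and 8 were counted. In other macrophages they would bring 1.64 and 2.10, where 5 and 4 were counted, and for Has1 in WT M2-type macrophages 2.49, where 5 were counted.

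Cemip2 was the member most shifted towards macrophages. It stood at 68.7, 55.4, 36.6 and 52.5 CPM in macrophages and at 3.13, 1.49, 1.37 and 3.83 CPM in stromal cells of tdT1, tdT2, WT and TNF-Tg, a fitted log2 difference of -4.14 ± 0.26 (edgeR adjusted p = 1.63e-08). Hyal2 stood at 14.7, 36.9, 26.7 and 38.6 CPM in macrophages against 4.27, 9.66, 5.38 and 7.22 CPM (-2.07 ± 0.23, edgeR adjusted p = 4.51e-06). Cd44 stood at 236, 60.04, 96.2 and 136 CPM in macrophages against 37.3, 23.8, 36.1 and 53.5 CPM (-1.47 ± 0.22, edgeR adjusted p = 7.99e-05). The macrophage level was above the stromal level in all 4 libraries for each of the 3 genes. The macrophages of tdT1 and tdT2 had only 203805 and 216519 UMIs over all genes, so the lower levels there rest on few UMIs. Hyal1 did not pass the test (-0.45 ± 0.38, edgeR adjusted p = 0.348), at 5.47 CPM in macrophages and 3.44 CPM in stromal cells of WT.

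Among leukocytes, Cd44 was highest in neutrophils, where WT had 765 CPM and TNF-Tg 702 CPM, among types with at least 50 cells. Patrolling monocytes of TNF-Tg had 452 CPM, and inflammatory monocytes 245 CPM (WT) and 319 CPM (TNF-Tg). Cemip2 and Hyal2 were highest among leukocytes in M2-type macrophages (40.1 and 29.7 CPM in WT), the resident type that carries Cd163 and Folr2. In neutrophils and inflammatory monocytes Cemip2 was at 9.54 CPM or less and Hyal2 at 5.70 CPM or less. No cell outside the TNF-Tg stroma had a Cemip UMI.

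**Figure D2:**
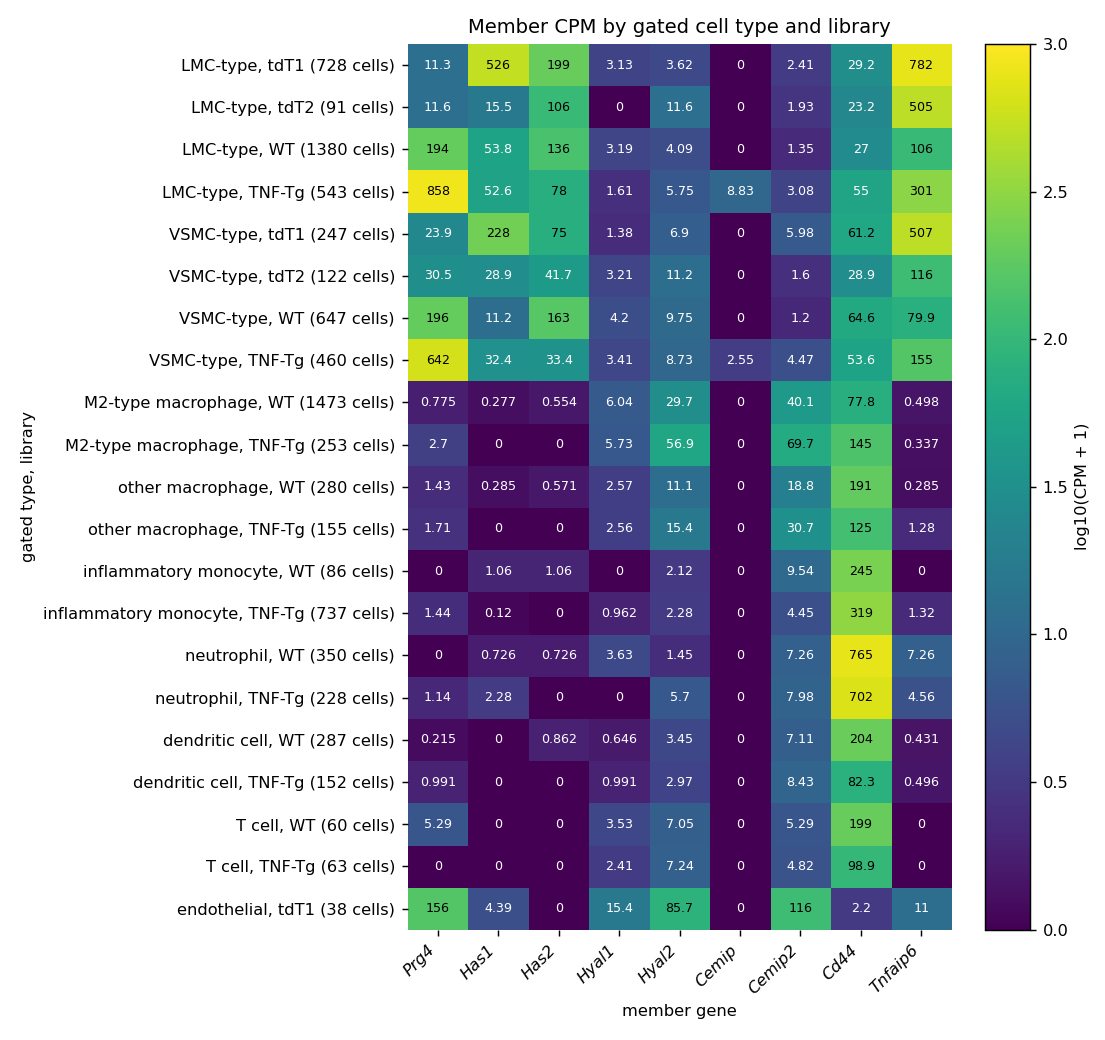
Level of each member (columns, CPM printed in each cell, colour on a log10(CPM + 1) scale) in each gated type and library with at least 50 cells, and in the 38 endothelial cells of tdT1. Prg4, Has1, Has2 and Tnfaip6 are bright in the stromal rows and Cd44 in the neutrophil rows (765 and 702 CPM). Cemip2 and Hyal2 are bright in the M2-type macrophage and endothelial rows. Prg4 is also bright in the endothelial row (156 CPM), above the stromal rows of tdT1 (11.3 and 23.9 CPM).

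Within the stroma, Has1 and Tnfaip6 were higher in LMC-type cells, and Hyal2 and Cd44 were higher in VSMC-type cells. The same edgeR test on 8 sums over 11822 genes called 2 of 9 members higher in LMC-type cells, beside 6.31% of all genes, and 2 lower, beside 7.86%. Tnfaip6 was higher in LMC-type cells in 4 of 4 libraries (log2 difference 0.87 ± 0.21, edgeR adjusted p = 0.00823) and Has1 in 3 of 4 (1.10 ± 0.27, edgeR adjusted p = 0.00799), tdT2 being the exception. Cd44 was lower in LMC-type cells in 3 of 4 libraries (-0.83 ± 0.18, edgeR adjusted p = 0.00439) and Hyal2 also in 3 of 4 (-0.97 ± 0.24, edgeR adjusted p = 0.0083). The Cd44 difference was 27.0 against 64.6 CPM in WT, and in TNF-Tg 55.0 against 53.6 CPM, where the intervals met.

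The other 5 members did not pass. Has2 had a log2 difference of 0.75 ± 0.24 (edgeR adjusted p = 0.0350), with LMC-type cells higher in 3 of 4 libraries and lower in WT. Prg4 differed by -0.28 ± 0.21 (edgeR adjusted p = 0.385) and was nearly level in WT, at 194 and 196 CPM. The 4 calls lay close to the threshold and were lost in turn under other settings: without tdT1 only Tnfaip6 was called, without tdT2 3 members, without WT Has2 and Tnfaip6, without TNF-Tg Has1 and Cd44, and DESeq2 called 1 member.

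The contrast of TNF-Tg with WT asks what inflammatory arthritis goes along with in these vessels, and was read as the ratio of 2 libraries with exact conditional binomial intervals, for counting error only. A change of 2-fold in genes that reached 20 CPM in either library was the size counted. In LMC-type cells Prg4, Tnfaip6 and Cd44 were 2-fold or more higher, 3 members beside 3.27% of 5841 genes, and 0 members were 2-fold lower, beside 3.13%. In VSMC-type cells Prg4 and Has1 were 2-fold or more higher, 2 members beside 3.81% of 5689 genes, and Has2 was lower, 1 member beside 10.1%. Has1 reached 20 CPM there in TNF-Tg alone (32.4 CPM, against 11.2 CPM in WT), so it was counted only through the library where it was higher.

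Prg4 was 4.43-fold higher in TNF-Tg LMC-type cells (log2 2.15 [2.09–2.20], above 99.3% of the genes that reached 20 CPM) and 3.28-fold higher in VSMC-type cells (log2 1.71 [1.62–1.81], above 99.2%). Its level in TNF-Tg was also 2-fold or more above each of WT, tdT1 and tdT2 in both types, which 1.61% of genes were in LMC-type cells and 1.74% in VSMC-type cells, and of the members that reached 20 CPM it alone met that in either type. The median gene had a log2 ratio of -0.02 in LMC-type cells and -0.14 in VSMC-type cells. The study, from these same libraries, already listed Prg4 among the genes most raised in TNF-Tg LMCs and as raised in VSMCs too. Its fold changes were smaller and came from cells of its own clusters, a different measure, so the rise given here is not new support. Tnfaip6 was 2.84-fold higher in LMC-type cells (log2 1.51 [1.42–1.59]) and 1.93-fold higher in VSMC-type cells (log2 0.95 [0.79–1.11]), but both tdT libraries exceeded TNF-Tg in LMC-type cells.

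The synthases did not move together. Has2 was 4.88-fold lower in TNF-Tg VSMC-type cells (log2 -2.29 [-2.54 to -2.04], at the 0.404 percentile of genes) and 1.74-fold lower in LMC-type cells (log2 -0.80 [-0.93 to -0.67]). Has1 had a log2 ratio of -0.03 [-0.20 to 0.13] in LMC-type cells and of 1.52 [1.12–1.94] in VSMC-type cells, where it rested on 152 UMIs in TNF-Tg and 75 in WT. The Has1 range among libraries without the transgene in VSMC-type cells was 20.2-fold, larger than its 2.88-fold ratio of TNF-Tg over WT.

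Cd44 was 2.03-fold higher in TNF-Tg LMC-type cells (log2 1.02 [0.84–1.21]), a ratio that came to log2 0.62 when each cell was thinned to 3000 UMIs and 0.64 with each cell weighted alike, and had a log2 ratio of -0.27 [-0.50 to -0.04] in VSMC-type cells. Hyal1, Hyal2 and Cemip2 stayed below 20 CPM in both stromal types. For Hyal2 the interval held 0 in both stromal types and for Hyal1 in VSMC-type cells. In LMC-type cells Hyal1 was lower in TNF-Tg, at 1.61 CPM against 3.19 CPM in WT, from 12 and 71 UMIs. Cemip2 had log2 ratios of 1.19 [0.34–2.02] and 1.90 [0.66–3.28], from 8 to 30 UMIs a sum.

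In M2-type macrophages the 3 members that lead there were all higher in TNF-Tg: Hyal2 at 56.9 against 29.7 CPM (1.92-fold, above 95.3% of genes), Cd44 at 145 against 77.8 CPM (1.86-fold, above 94.5%) and Cemip2 at 69.7 against 40.1 CPM (1.74-fold, above 92.4%). None of them reached 2-fold. In other macrophages Cd44 was 125 CPM in TNF-Tg and 191 CPM in WT, while Cemip2 was 30.7 against 18.8 CPM. Cd44 of neutrophils had a log2 ratio of -0.12 [-0.27 to 0.02].

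**Figure D3:**
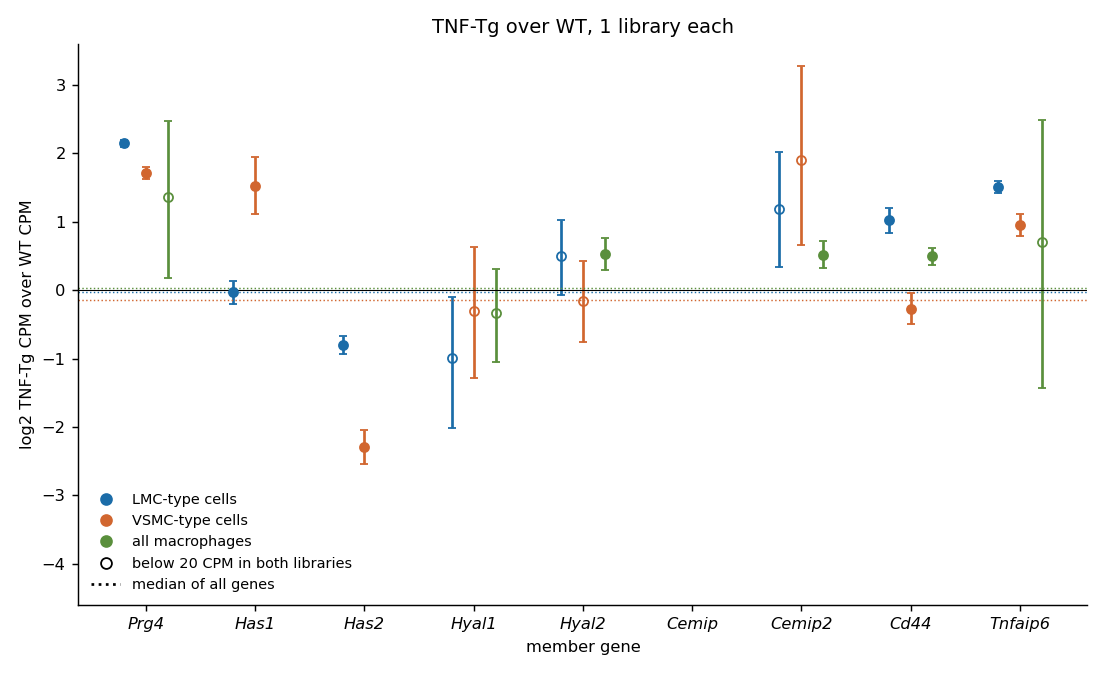
Log2 ratio of TNF-Tg over WT for each member in LMC-type cells (blue), VSMC-type cells (orange) and all macrophages (green), with exact conditional binomial 95% intervals for counting error; open circles mark genes below 20 CPM in both libraries, dotted lines the median of all genes, and sums under 4 UMIs are left out. Prg4 lies at 2.15 and 1.71 in the stromal types, Has2 at -0.80 and -2.29.

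The stromal cells of WT and TNF-Tg were spread differently over clusters made from all 4 libraries without the 9 genes. No correction for library was made, so library, genotype and kind of cell cannot be told apart in this split. Cluster 10 held 51.7% of WT and 35.9% of TNF-Tg LMC-type cells, while cluster 37 held 43.5% of TNF-Tg and 0.145% of WT LMC-type cells. Of the VSMC-type cells, 492 of 647 in WT were in cluster 22 and 305 of 460 in TNF-Tg in cluster 33, which held 5 WT cells. Markers of other tissues that make lubricin were looked up in the same cells. The 4 synovial lining genes summed to 79.9 CPM in LMC-type cells of WT and 24.2 CPM in those of TNF-Tg, of which Clic5 alone gave 78.9 and 19.0 CPM, and to 15.4 and 6.17 CPM in VSMC-type cells. The 5 tendon genes summed to 40.2 and 13.8 CPM in LMC-type and to 14.1 and 7.45 CPM in VSMC-type cells. The 5 cartilage genes summed to 0.0899 and 0 CPM in LMC-type cells and to 48.4 CPM (all Comp) and 4.26 CPM in VSMC-type cells. The LMC-type markers themselves summed to 19223 CPM in LMC-type cells of WT and 13074 CPM in those of TNF-Tg, and 4 erythroid genes to 9.71 and 581 CPM, and the part of either in the ratios was not tested.

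Cluster 37 had the highest Prg4 level of the clusters with stromal cells. Its 242 TNF-Tg stromal cells had 1224 CPM of Prg4, 426 CPM of Tnfaip6, 81.5 CPM of Cd44 and 15.6 CPM of Cemip. In cluster 10, which both libraries shared (722 WT and 195 TNF-Tg stromal cells), the Prg4 level was 166 CPM for WT and 280 CPM for TNF-Tg (1.68-fold, log2 0.75 [0.61–0.89]), Tnfaip6 at 109 and 121 CPM (log2 0.15 [-0.06 to 0.35]) and Cd44 at 20.8 and 15.1 CPM (log2 -0.46 [-1.05 to 0.09]). Has1 stood at 63.3 and 34.6 CPM there (log2 -0.87 [-1.24 to -0.52]). Within the shared cluster, then, Prg4 kept a smaller ratio, Tnfaip6 and Cd44 had intervals that held 0, and Has1 was lower in TNF-Tg.

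Clusters with few stromal cells of either library were left out here, and the smallest group that remained had 34 cells (TNF-Tg in cluster 12). Prg4 was higher in TNF-Tg in 4 of the 5 clusters that remained. In cluster 12 it stood at 484 and 793 CPM (1.64-fold), in cluster 22 at 231 and 552 CPM (2.39-fold) and in cluster 11 at 27.4 and 495 CPM, the WT value resting on 4 UMIs. In cluster 17 it was lower in TNF-Tg, at 133 and 62.7 CPM (log2 -1.08 [-1.68 to -0.52]). Has2 was lower in TNF-Tg in all 5 of these clusters, with an interval that held 0 in cluster 12.

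**Figure D4:**
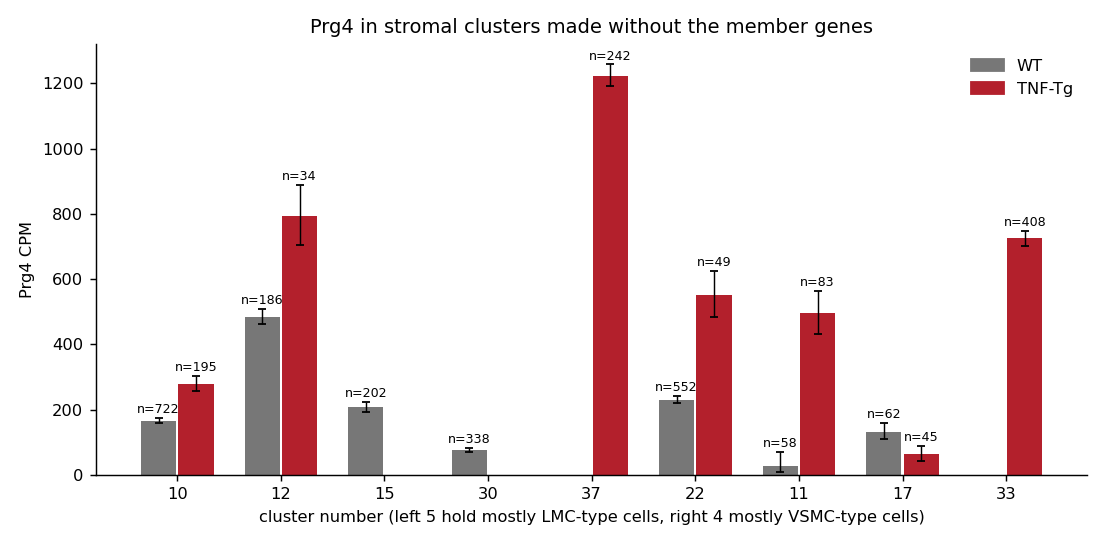
Prg4 level (CPM, bars from 0, exact 95% Poisson intervals) of WT (grey) and TNF-Tg (red) stromal cells in each cluster made without the 9 genes, with the number of cells above each bar; the left 5 clusters hold mostly LMC-type and the right 4 mostly VSMC-type cells, and clusters with few stromal cells of a library have no bar for it. Clusters 37 and 33 have a TNF-Tg bar alone (1224 and 725 CPM), and of the 5 clusters with both bars cluster 17 is the one in which TNF-Tg is lower.

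Both the share of cells with a Prg4 UMI and the amount per cell were higher in TNF-Tg. After each cell was thinned to 3000 UMIs, 24.0% [21.8–26.4] of 1348 WT and 52.3% [48.0–56.7] of 533 TNF-Tg LMC-type cells had a Prg4 UMI (exact Clopper-Pearson intervals), and 22.8% and 57.8% of 536 and 391 VSMC-type cells. As deposited the shares were 48.4%, 67.4%, 36.0% and 69.1%, at median depths of 16057, 12382, 10804 and 9682.5 UMIs. In macrophages, which should lack the gene, 0.300% of 1669 thinned WT cells and 0.794% of 378 thinned TNF-Tg cells had one, at median depths of 12383 and 12758.5 UMIs. Cells with 10 or more Prg4 UMIs made up 8.12% of WT and 37.02% of TNF-Tg LMC-type cells. The top 10% of LMC-type cells held 67.4% of the Prg4 UMIs in WT and 46.5% in TNF-Tg, so Prg4 was spread over more cells in TNF-Tg.

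Prg4 and Has1 were found in the same cell about as often as their separate shares give, or slightly more. Among 1348 thinned WT LMC-type cells, 324 had Prg4, 176 had Has1 and 49 had both, where independence of the shares gives 42.3. Among 533 TNF-Tg LMC-type cells, 279 had Prg4, 52 had Has1 and 33 had both, against 27.2. Seen from Prg4, 15.1% of Prg4 cells and 12.4% of the other WT LMC-type cells had Has1, and 11.8% and 7.48% in TNF-Tg. Cells with Prg4 and cells with Has1 were thus not separate sets in either library, and the small excess was not tested, since cells of 1 library are not replicates.

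In VSMC-type cells the counts were small: 5 cells with both against 2.05 in WT and 13 against 12.1 in TNF-Tg. In tdT1, where Has1 was high and Prg4 scarce, 7 of 510 LMC-type cells had both against 4.73. In tdT2 no cell had both, where 0.0286 LMC-type cells would by independence, too few to read. In WT LMC-type cells the direction turned with the thinning: the ratio of observed to independent was 0.816 at 1500 UMIs per cell (13 cells with both), 1.16 at 3000 and 1.05 as deposited. In TNF-Tg LMC-type cells it did not turn, at 1.28, 1.21 and 1.16.

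**Figure D5:**
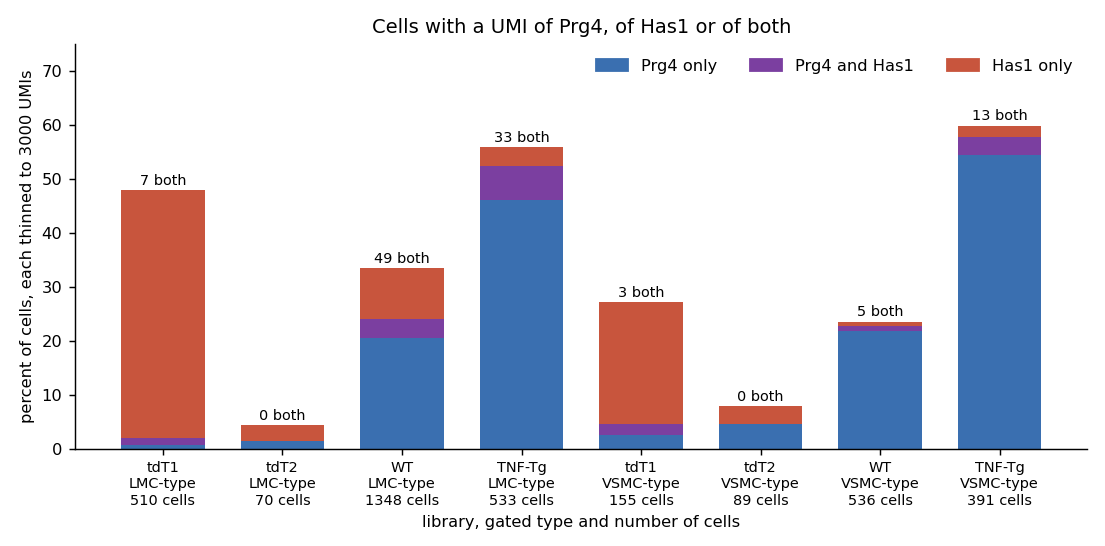
Percent of cells with a UMI of Prg4 only, of Prg4 and Has1, and of Has1 only, in LMC-type and VSMC-type cells of each library after thinning to 3000 UMIs, with the number of cells below each bar and the number with both genes above it. The tdT1 bars are mostly Has1 and the WT and TNF-Tg bars mostly Prg4; 49 of 1348 WT and 33 of 533 TNF-Tg LMC-type cells hold both.

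Has1 and Tnfaip6 shared cells in each library with enough cells: 172 of 510 tdT1 LMC-type cells had both against 146 by independence, 51 of 1348 in WT against 40.2, and 27 of 533 in TNF-Tg against 19.9. Prg4 and Tnfaip6 shared 92 WT LMC-type cells against 74.0 and 130 TNF-Tg LMC-type cells against 107. Prg4 and Has2 shared 88 against 90.6 in WT and 55 against 56.0 in TNF-Tg. Prg4 and Cd44 shared fewer WT LMC-type cells than independence gives (16 against 24.8) and more TNF-Tg LMC-type cells (40 against 29.8), but the WT deficit was not there at 1500 UMIs (9 against 8.31) and was small as deposited (192 against 199). In VSMC-type cells Prg4 and Cd44 shared 32 WT cells against 21.2 and 35 TNF-Tg cells against 31.2. Across cells of TNF-Tg LMC-type, Pearson's r of the log levels was 0.34 for Prg4 with Tnfaip6 and 0.28 for Prg4 with Cd44 (543 cells of 1 library), against 0.07 and -0.05 in 1380 WT cells, while for Prg4 with Has1 it was 0.11 and 0.02. In VSMC-type cells r for Prg4 with Cd44 was 0.11 in both libraries, and for Prg4 with Tnfaip6 0.15 in TNF-Tg and 0.07 in WT (460 and 647 cells). Of the TNF-Tg LMC-type cells, 43.5% lay in cluster 37 and 35.9% in cluster 10. TNF-Tg stromal cells of these clusters had 1224 and 280 CPM of Prg4, 426 and 121 CPM of Tnfaip6, and 81.5 and 15.1 CPM of Cd44. Cluster 37 held only 0.145% of WT LMC-type cells. What this split adds to r and to the shared cells was not tested.

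The 78 Cemip UMIs lay in 13 TNF-Tg cells, 12 of them LMC-type and 1 VSMC-type. Of these, 12 cells were in cluster 37, none was called a doublet, and 3 cells held 57 UMIs, or 73.1%. All 13 also carried Prg4, with 6 to 110 UMIs and a median of 38. Their median depth was 27488 UMIs, above the 12382 UMIs of TNF-Tg LMC-type cells, and what depth adds to the detection was not tested.

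Outside the stroma, Prg4 was also found in endothelial cells of tdT1. There, 17 of 38 cells (44.7% [28.6–61.7], exact Clopper-Pearson) held 71 Prg4 UMIs, or 156 CPM, with at most 14 UMIs in 1 cell. The stromal cells of tdT1 had less, at 11.3 CPM in LMC-type and 23.9 CPM in VSMC-type cells. The ratio of Prg4 to stromal markers would bring 0.0812 UMIs. The endothelial gene Vwf was found in all 17 and in 34 of the 38 cells, and Mmrn1, a lymphatic endothelial gene, in 0 of the 17 and 1 of the 38. The 4 lymphatic endothelial genes (Prox1, Mmrn1, Flt4 and Reln) had 85 UMIs in the 38 cells, with Prox1 at 65.9 CPM and Mmrn1 at 72.5 CPM. How many of the 17 carried Prox1, Flt4 or Reln was not counted, so Mmrn1 alone does not show their kind. The 38 cells had 116 CPM of Cemip2 and 85.7 CPM of Hyal2, and the other libraries had 2 to 8 endothelial cells with 0 or 1 Prg4 UMI each.

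Genes that supply and bind hyaluronan were counted from a list of 34, also chosen with earlier results of these data known. Between the stromal types, 10 of the 19 tested were higher in LMC-type cells, beside 6.31% of all genes (edgeR, as above; median log2 0.71 against -0.02 over all genes). They included Ugdh, which makes UDP-glucuronic acid (log2 1.73 ± 0.17, edgeR adjusted p = 3.01e-06), Gfpt2, the entry enzyme of the hexosamine pathway (1.27 ± 0.15, edgeR adjusted p = 2.3e-05), Uap1, which makes UDP-N-acetylglucosamine (1.11 ± 0.14), and Vcan, the hyaluronan-binding proteoglycan versican (1.46 ± 0.19). Ugdh was highest in tdT1, at 1736 CPM in LMC-type cells against 441, 672 and 375 CPM in tdT2, WT and TNF-Tg. Between stromal cells and macrophages, 11 of 20 were higher in stromal cells, beside 26.1% of all genes, and 6 lower, beside 19.0%, among the latter the hyaluronan receptors Lyve1 and Stab1 and the lysosomal enzyme genes Hexa and Gusb.

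In TNF-Tg over WT, 1 of the 16 listed genes that reached 20 CPM in LMC-type cells was 2-fold or more higher and 0 were lower (median log2 -0.41 against -0.02). In VSMC-type cells 1 of 16 was higher (median -0.42 against -0.14), and in macrophages 1 of 11 was higher. The gene that rose past the size in both stromal types was Ptx3, pentraxin 3, which binds Tnfaip6 and the heavy chains in hyaluronan-rich matrix. It stood at 113, 112, 14.6 and 179 CPM in LMC-type cells of tdT1, tdT2, WT and TNF-Tg (log2 of TNF-Tg over WT 3.61 [3.44–3.79]) and at 51.5, 0, 1.80 and 98.3 CPM in VSMC-type cells. As with Tnfaip6, WT was the lowest library in LMC-type cells and the tdT libraries lay nearer to TNF-Tg. Among the genes 2-fold lower in VSMC-type cells were Gfpt2 (log2 -1.03) and the lysosomal enzyme gene Hexa (-1.09), and the higher gene in macrophages was Vcan, at 63.8 against 3.34 CPM. Ptx3 in both stromal types and Vcan in macrophages reached 20 CPM in TNF-Tg and not in WT, so they were counted only through the library where they were higher.

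By likeness of level over 22 sums of a type in a library (Pearson's r of log2(CPM + 1), genes that are neither members nor gate genes), the genes nearest to Prg4 were Serpina3n (0.94), Cthrc1 (0.93), Fjx1 (0.92), Fkbp11 (0.92) and Ccl19 (0.91). Serpina3n, a protease inhibitor, stood at 183 and 440 CPM, and Ccl19, a chemokine of lymphoid stroma, at 21.8 and 250 CPM in WT and TNF-Tg LMC-type cells, while Fjx1 went the other way, at 11.5 and 8.97 CPM. Nearest to Has1 were Meg3 (0.97), Ebf3 (0.96), Myorg (0.95), Adamts1 (0.95) and Runx1t1 (0.95), and Meg3 and Adamts1 were highest in tdT1 too, at 259 and 381 CPM in LMC-type cells against 57.8 and 107 CPM in WT. The sums share libraries and depth and span both stromal cells and leukocytes.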

How the data were processed

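Single-cell suspensions of 4 pools of 3 mice were profiled by 10x 3′ RNA-seq. The deposited matrices hold UMI counts for each gene in each cell. The authors produced them in Cell Ranger (3.1.0 for tdT1 and 6.0.1 for the other libraries per the file headers; the submitters' processing notes name Cell Ranger 3.1.0, Seurat 4.0.3 and mm10). The deposited counts were used as they were, and predicted doublets (Scrublet in scanpy 1.11.5; 1 to 138 per library) were kept.

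The members and gene lists were chosen with earlier results of these data known, and the gate thresholds were set after the data were seen. Cells with at least 40 stromal-marker UMIs per 10000 and under 10 leukocyte-marker UMIs per 10000 were stromal; LMC-type cells had a log2 ratio of LMC to VSMC markers (each plus 1) of at least 1 and VSMC-type cells of 0 or less. Counts were summed per library and type and given as CPM, with exact Poisson intervals and, for shares, Clopper-Pearson intervals (95%), which cover counting error only. A count of 0 was given with the limit of 3 UMIs.

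Class contrasts used edgeR 4.0.16 quasi-likelihood tests (TMM, filterByExpr, library and type as terms, Benjamini-Hochberg adjustment, threshold 0.01) in R 4.3.3, with DESeq2 1.42.0 as an alternative. On simulated counts for LMC-type against VSMC-type cells (11554 genes), edgeR recovered 69 of 98 changes of log2 1 and 93 of 100 of log2 2, with 9 false calls; for stromal cells against macrophages (12439 genes) it recovered 42 of 97 and 86 of 97, with 31 false calls. In both simulations false calls made up a larger share of all calls than the threshold of 0.01 allows. Each simulated gene had the same mean level in every library, unlike Has1 in these data. TNF-Tg and WT had 1 library each, so their ratios have conditional binomial intervals and no test. All 9 members are named. Genes of the hyaluronan list are named where they reached 20 CPM and 2-fold or bear on a member, and those most like Prg4 and Has1 by Pearson's r. Part of the results for the hyaluronan list is not reported here. Other settings tried were scaling, the low-count filter, left-out libraries, a stricter gate, clusters made without the members, removal of poor cells or doublets, fold size, thinning and equal weight per cell.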

Additional observations from a re-analysis of the deposited data

Results flagged for a closer look

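Cd44 had ratios of TNF-Tg over WT of opposite sign in the stromal types, log2 1.02 in LMC-type cells and -0.27 in VSMC-type cells, a difference of 1.29. The VSMC-type ratio stood beside -0.14 for the median gene and ran from -0.47 to -0.09 over the settings tried. The LMC-type ratio ran from 0.62 to 1.03. Each ratio rests on 1 library per genotype, so the difference was not tested. In cluster 10, which both libraries shared, the ratio in mostly LMC-type cells was -0.46 [-1.05 to 0.09].

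Prg4 had 71 UMIs in 17 of the 38 endothelial cells of tdT1, a cell type outside the comparisons made here, against the 3 UMIs that a count of 0 allows. The cells had a median of 14156.5 UMIs, and no other library had more than 8 endothelial cells.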

How the results depend on the processing

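Between LMC-type and VSMC-type cells 4 members were called, against 2 with DESeq2's size factors, 1 with DESeq2, 1 in clusters made without the members and 1 to 3 when a library was left out (1 without tdT1, 3 without tdT2, 2 without WT and 2 without TNF-Tg). Over the alternatives the adjusted p ran from 2.03e-11 to 0.410 for Has1 and from 4.76e-09 to 0.0225 for Tnfaip6. Cemip, not called, turned to a log2 difference of -0.46 with DESeq2 (adjusted p = 0.9626). The causes were not tested. Between stromal cells and macrophages 7 or 8 members were called in all 12 alternatives, of which the fit of WT and TNF-Tg alone was chosen after seeing the data.

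For TNF-Tg over WT, 1 member was higher in LMC-type cells at 3-fold and 1 lower at 1.5-fold, and in VSMC-type cells 1 was higher at 3-fold and 1 with each cell weighted alike. TMM scaling shifted log2 ratios by 0.18 in VSMC-type cells and -0.01 in LMC-type cells. Prg4 stayed at 2.02 to 2.28 and 1.59 to 1.95, and Has2 at -0.83 to -0.64 and -2.30 to -2.03, in LMC-type and VSMC-type cells. Cd44 in LMC-type cells ran from 0.62 to 1.03 and Has1 in VSMC-type cells from 0.93 to 2.04, so both fell below 2-fold under some settings.

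The share of cells with Prg4 was 48.4% (WT) and 67.4% (TNF-Tg) of LMC-type and 36.0% and 69.1% of VSMC-type cells as deposited, and 16.9%, 43.0%, 14.3% and 45.8% at 1500 UMIs. Cells with both Prg4 and Has1, over the number by independence, came to 1.33 in tdT1 and 1.23 in WT stromal cells, to 0.411 and 0.850 at 1500 UMIs, and to 2.42 and 2.26 when 2 UMIs of each were asked for. In TNF-Tg stromal cells it was 1.17, and 1.21 and 1.08 under the same settings. Depth limits Hyal1, Hyal2, Cemip and Cemip2 in the stroma and all members in tdT2.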
